A study of Mus musculus with 6 samples.

Results

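Untreated cultured granulosa cells (GCs) were profiled in 3 RNA-seq libraries, the control libraries among the 6 libraries of the series, and every one of the 16300 genes with a value in them was ranked by its mean normalized count. A normalized count is the number of reads of a gene divided by a size factor that sets the libraries on a common scale. The GCs came from wild type C57BL/6J mice aged 8 to 9 weeks. They were released from the ovaries by puncture on the day of estrus, and were pooled from 5 mice for each library. The cells were cultured for 48 h with 10% serum and starved of serum for 4 h. They were then kept in serum-free medium without dihydrotestosterone (DHT), the androgen that the other 3 libraries received for 24 h. The labels describe the extracted material of all samples as whole ovary and name DHT in the treatment text of all of them, whereas the characteristics give granulosa cells and control for these 3, which were taken as the group. The labels do not say that the 3 pools came from different days.

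GCs surround the oocyte in the ovarian follicle, feed it through gap junctions and respond to follicle-stimulating hormone. Before ovulation they make estradiol and the inhibins, and after the surge of luteinizing hormone the cells of the ruptured follicle turn into the progesterone-producing cells of the corpus luteum. GCs placed in serum-containing culture are known to move toward luteal characters. Theca cells, which supply androgen precursors, lie outside the basement membrane together with stromal, endothelial and immune cells, and can be carried along when follicles are punctured.

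The libraries held between 38486526 and 41928585 reads on the 16300 genes, and all 3 detected at least 16299 of them. These are the genes kept in the deposited values, with a smallest mean of 3.16 normalized counts. Detection of nearly all of them therefore does not measure how many genes were expressed. Ranks, shares of reads and the median gene refer to these genes only. The 1000 highest genes held 49.7% to 50.0% of the reads of a library. The median gene had a mean of 692 normalized counts, 7023 genes had a mean of at least 1000, and 14 genes had a mean above 100000. Protein-coding genes made up 84.4% of the genes and took 98.8% of the reads. No group was set against another, and the 3 libraries serve to show the spread of each level. The RNA came from bulk samples, in which fewer cells of a type and less RNA per cell cannot be told apart. The reads were counted without a strand setting given in the sources used here, and 5148 genes (31.6%) shared exonic bases with a gene on the other strand.

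The 5 genes that mark the cells as GCs were all measured, but at very different levels. *Cyp11a1* (ENSMUSG00000032323, chr9:58006411-58027023 of GRCm38), which makes pregnenolone from cholesterol, had 97025, 85893 and 80557 normalized counts in control replicates 1, 2 and 3, and ranked 19 of all genes. *Inha* (ENSMUSG00000032968, chr1:75507077-75510366), the alpha subunit shared by the inhibins, had 60095, 51823 and 50626 and ranked 41. Both were highest in replicate 1, and their spread among libraries was 9.57% and 9.52% (coefficient of variation, CV, the SD as a percent of the mean). *Foxl2* (ENSMUSG00000050397, chr9:98955288-98958543), the transcription factor that maintains GC identity, had 2494, 2588 and 2433 and ranked 3768, with the libraries within 1.06-fold of each other. *Fshr* (ENSMUSG00000032937, chr17:88984952-89200675), the receptor of follicle-stimulating hormone, had 139.5, 143.1 and 167.7 and ranked 11067. *Amh* (ENSMUSG00000035262, chr10:80805243-80807648), the anti-Mullerian hormone of growing follicles, had 195.9, 119.9 and 75.04 and ranked 11268. Thus *Cyp11a1* and *Inha* lay within the highest 0.252% of genes and *Foxl2* within the highest 23.1%, while *Fshr* and *Amh*, the receptor and the hormone of growing follicles, were below the median gene.

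**Figure D1:**
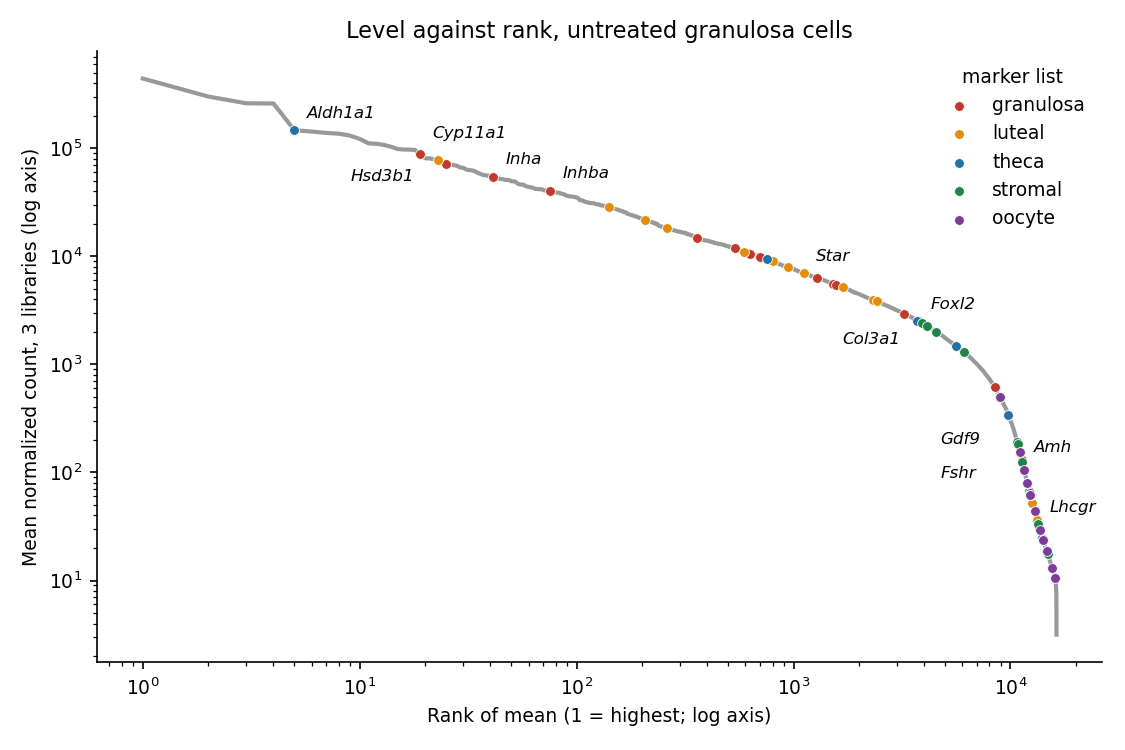
Mean normalized count of every gene over the 3 control libraries (y axis, log) against its rank (x axis, log, 1 is the highest), with the members of 5 marker lists as coloured points. *Cyp11a1*, *Hsd3b1*, *Inha* and *Inhba* lie among the highest 100 genes, *Star* and *Foxl2* in the middle of the curve, and *Fshr*, *Amh*, *Lhcgr* and *Gdf9* on its falling end.

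The order of genes by count is an order of reads, which grow with the length of a transcript, and levels of different genes were compared per kb of exonic length. The gene with the most reads was *mt-Co1*, a mitochondrial subunit of cytochrome c oxidase, with 443857, 436184 and 442612 normalized counts. *Thbs1*, the secreted matrix protein thrombospondin 1, followed with 281395, 292673 and 328244. *Clu*, the secreted chaperone clusterin, had 275061, 289389 and 216239, and its CV of 14.9% was the widest among the 25 highest genes. The translation factor *Eef1a1* had 255573, 258667 and 263132, a CV of 1.47%. By count, these 4 genes stood apart from the fifth, *Aldh1a1*, an enzyme of retinoic acid synthesis, which had 149076, 134921 and 155949. The gap was one of reads: per kb of exonic length *Thbs1* ranked 13 and *Aldh1a1* 23, and by the longest transcripts in the basic set of GENCODE 15 and 11.

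The other genes among the 25 highest means fell into a few kinds. Mitochondrial genes added *mt-Cytb*, *mt-Nd5*, *mt-Nd1* and *mt-Nd2*. Cytoskeletal and adhesion genes were *Cald1*, *Actb*, *Actg1* and *Dag1*, the gene of dystroglycan, a receptor for laminin. Chaperones and the translation apparatus gave *Hspa8*, *Hsp90ab1* and *Eef2*, and *Ftl1* encodes the light chain of ferritin. Steroid and lipid metabolism was represented by *Cyp11a1*, *Hsd3b1* and the desaturase *Scd2*. The rest were *Col4a1* of the basement membrane, the hyaluronan-degrading *Cemip*, the taurine transporter *Slc6a6*, the ubiquitin ligase *Nedd4* and *Gja1*, the connexin of the gap junctions between GCs. Ranked per kb, 15 of these 25 remained among the 25 highest. The 10 highest per kb, among genes with over 200 exonic bases, were *Eef1a1*, *Ftl1* and *Clu* and the mitochondrial *mt-Co1*, *mt-Cytb*, *mt-Nd1*, *mt-Nd2*, *mt-Nd4*, *mt-Nd5* and *mt-Nd6*. The genes that left the highest 25 per kb were *Cald1*, *Cemip*, *Nedd4*, *Slc6a6*, *Gja1*, *Dag1*, *Hspa8*, *Scd2*, *Col4a1* and *Cyp11a1*. *Cyp11a1* ranked 47 per kb of exonic length and 21 by the longest basic transcripts. Of the windows of 100 bases along the longest transcript of *Ftl1*, 78.6% also occur in another gene's transcript, and 51.1% of those of *Actg1* do, so part of their reads could have been discarded as not unique.

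The granulosa list held 18 genes with values, and 13 of them lay in the highest 10% of genes per kb. Their median level was 1969 normalized counts per kb, against 163 over all genes. *Cyp19a1*, the aromatase, and *Nr0b1* were not analysed here. Among the transcription factors, *Gata4* had 11504, 10550 and 10093 normalized counts, *Nr5a2* 13632, 14135 and 16735, and *Nr5a1* 6022, 5679 and 5081. Per kb, *Nr5a2*, also known as LRH-1, was 1.93 ± 0.389 (SD, n = 3) times *Nr5a1*, also known as SF-1, and the factor ran from 1.63 to 2.37 among the libraries. *Wt1*, a factor of immature GCs, was the lowest of the list's transcription factors at 807, 522 and 516, and was highest in replicate 1. Estrogen acts in GCs mainly through *Esr2*, which had 5719, 5229 and 5409 normalized counts with a CV of 4.54%. *Hsd17b1*, which turns estrone into estradiol, had 5460, 6540 and 6888, and *Gja1* had 67758, 74161 and 72215. *Kitl*, the ligand by which GCs signal to the oocyte, had 12229, 8659 and 10840.

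The genes of the inhibin and activin subunits were among the high genes. *Inhba*, the beta A subunit, had 36157, 37739 and 46969 normalized counts and *Inhbb*, the beta B subunit, had 8644, 11422 and 15386. Both were lowest in replicate 1 and highest in replicate 3, the reverse of *Inha*. Per kb, *Inha* was 7.20, 5.95 and 4.67 times *Inhba* in replicates 1, 2 and 3, and 20.1, 13.1 and 9.49 times *Inhbb*. The excess of the alpha subunit over both beta subunits was thus found in every library, but its size moved by over 1.5-fold between them. *Fst*, the gene of the activin-binding follistatin, had 7159, 9612 and 12825, in the same order of libraries as the beta subunits. Per kb, *Fst* stood at 0.337 ± 0.0545 (SD, n = 3) of *Inhba*, and at 0.552 by the longest basic transcripts of GENCODE. *Fstl3*, which also encodes an activin-binding protein, was lower at 752, 861 and 830.

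Of the other ligands of this family, *Bmp2* had a mean of 3313 ± 622 normalized counts (SD, n = 3), *Bmp6* 1255 ± 202 and *Bmp4* only 45.2 ± 3.34. The antagonist *Grem1*, which GCs use to limit BMP signals, had 2052 ± 432. Of the receptors, *Bmpr2* had 20984 ± 1532, *Tgfbr1* 7961 ± 570, *Bmpr1a* 7472 ± 374, *Bmpr1b* 4951 ± 324 and *Amhr2*, the receptor of anti-Mullerian hormone, 2286 ± 93.3. Per kb, *Amhr2* exceeded its ligand *Amh* 10.2-fold, 15.6-fold and 24.7-fold in the 3 libraries, since *Amh* varied while *Amhr2* stayed within 1.08-fold.

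Many genes of luteal cells were high as well. All 16 genes of the luteal list had values, 11 lay in the highest 10% per kb, and the median level was 1830 normalized counts per kb. *Cyp11a1* and *Nr5a2* belong to both lists. *Hsd3b1*, which turns pregnenolone into progesterone, had 80918, 79142 and 72329 normalized counts and ranked 14 of all genes per kb, above *Inha* at 16. Their levels per kb were 41759 ± 2444 and 36733 ± 3496 (SD, n = 3), a difference of the order of the spread. *Star*, which carries cholesterol into the mitochondrion, had 7323, 5877 and 7691 and ranked 1115. Per kb of exonic length, *Cyp11a1* was 10.9 ± 1.81 (SD, n = 3) times *Star* and *Hsd3b1* 25.1 ± 4.53 times. With the length of the longest transcript in the basic set of GENCODE in place of all exonic bases, *Cyp11a1* came to 24.1 times *Star* and *Hsd3b1* to 24.3 times. The annotated exons of *Cyp11a1* span 4804 bases, its longest transcript of the basic set 2120 and its longest annotated transcript 3439, so the size of the gap between *Cyp11a1* and *Hsd3b1* per kb depends on the length taken.

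The electron carriers that serve *Cyp11a1* were also high, with *Fdx1* at 18332 ± 1740 normalized counts and *Fdxr* at 7909 ± 1073 (SD, n = 3). *Scarb1*, which takes up cholesterol from high-density lipoprotein, had 10970 ± 733. *Sfrp4* and *Parm1*, known from luteal cells, had 21811 ± 2470 and 28417 ± 1071. Of the enzymes that inactivate progesterone or reduce steroids, *Akr1c18*, the 20-alpha-hydroxysteroid dehydrogenase of the regressing corpus luteum, had 78.2, 45.5 and 33.4, while *Akr1c14* had a mean of 34664 ± 1685. Per kb, *Akr1c14* exceeded *Akr1c18* by 163-fold to 371-fold. The receptor of luteinizing hormone, *Lhcgr*, was near the low end of the list at 32.7, 12.1 and 63.9 normalized counts, and *Ptgfr*, the receptor of the prostaglandin that ends luteal life, had 222, 107 and 699. Both had their highest value in replicate 3 and their lowest in replicate 2, with a fold of 5.29 and 6.54 between the extremes. *Prlr*, the prolactin receptor, differed less, with 3610, 3783 and 4462.

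Over the whole pathway from cholesterol to the sex steroids, 15 of 21 listed genes had values, and 8 of these lay in the highest 10% per kb. *Cyp17a1*, which makes androgens in theca cells, *Cyp19a1*, *Hsd17b3*, *Srd5a2*, *Cyp21a1* and *Cyp11b1* were not analysed here. *Hsd3b6*, a second isoform of the 3-beta-hydroxysteroid dehydrogenase, had 32.7, 25.1 and 16.7 normalized counts, and per kb *Hsd3b1* exceeded it by 2407-fold to 4214-fold. *Srd5a1*, which reduces testosterone to DHT, had 275, 309 and 282.

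The sex steroid receptors differed in level. Per kb, *Esr2* exceeded *Esr1* by 121-fold, 116-fold and 96.7-fold, and 51.3-fold by the longest basic transcripts. *Pgr*, the progesterone receptor that appears before ovulation, had 25.7, 31.6 and 25.9 and was the lowest of the 20 receptors listed, per kb and by count, though not apart from *Lhcgr* beyond the spread of the latter. The receptors of insulin and growth hormone were the steadiest of the list, with *Insr* at 3329 ± 35.5 and *Ghr* at 2800 ± 29.0 (SD, n = 3).

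Genes that the surge of luteinizing hormone switches on in the follicle were mixed. Of the ovulatory list, 13 of 15 genes had values, 2 of them in the highest 10% per kb, and the median of 105 normalized counts per kb was below that of all genes. *Adamts1*, a protease of the expanding cumulus, had 3628, 4044 and 5215 normalized counts, and *Ptgs2*, the prostaglandin synthase, 2455, 2835 and 3651. *Cebpb* and *Runx1*, transcription factors of the ovulatory response, had 3498 ± 222 and 4263 ± 467 (SD, n = 3). The genes of the expanding cumulus matrix were low, with *Tnfaip6* at 114 ± 24.6, *Ptx3* at 56.1 ± 11.6 and *Has2*, the hyaluronan synthase, at 445 ± 153. *Ereg*, an epidermal growth factor ligand, had 57.6 ± 13.5. *Areg* was not analysed here. Of the 13 genes, 9 were highest in replicate 3 and none was lowest there. Over all genes whose mean was 10 or more, 35.2% were highest in replicate 3 and 35.2% were lowest there.

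**Figure D2:**
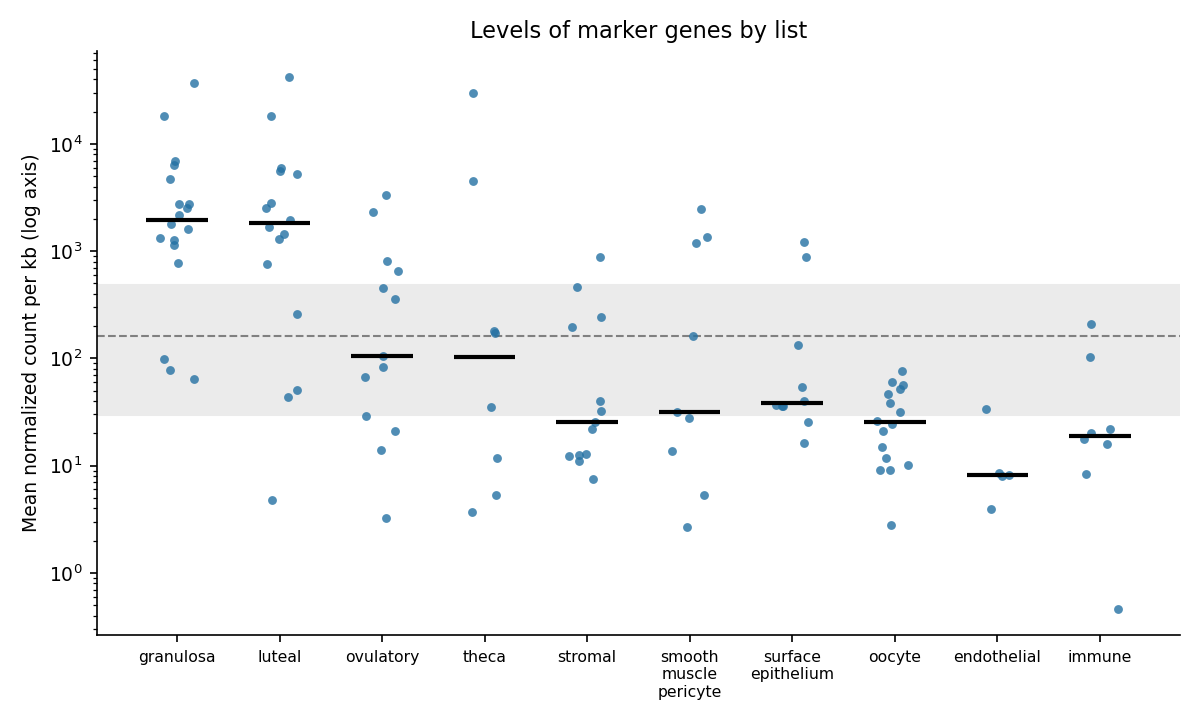
Mean normalized count per kb of exonic length (y axis, log) of each analysed member of 10 marker lists, one point a gene, with a black bar at the median of the list. The grey band covers the middle 50% of all genes, from 29.8 to 485, and the dashed line their median of 163. The medians of the granulosa and luteal lists, 1969 and 1830, lie above the band, and those of the stromal, oocyte, endothelial and immune lists, 25.7, 25.4, 8.24 and 18.99, lie below it.

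Markers of cells that lie next to GCs were low, with some exceptions. The defining theca genes *Cyp17a1* and *Insl3* were not analysed here. Of the 8 theca genes with values, *Aldh1a1* ranked 5 of all genes and *Mgarp* 752, whereas the targets of hedgehog signals from GCs to theca cells were lower, with *Ptch1* at 2543 ± 200 normalized counts (SD, n = 3) and *Gli1* at 17.8, 12.1 and 25.9. The list's median was 104 per kb, and 7 of the 8 genes were highest in replicate 3, against 35.2% of all genes. Among stromal genes, 13 of 15 had values and none was among the 1000 highest. *Col3a1*, a fibrillar collagen, had 1966, 2766 and 2477, *Ogn*, a small proteoglycan, 2246 ± 252, and *Col1a1* 1063, 1343 and 1479. *Pdgfra* and *Pdgfrb*, receptors that mark mesenchymal cells, had 126 ± 23.4 and 67.6 ± 14.7. Stromal genes were highest in replicate 2 in 9 of 13 cases, against 30.3% of all genes. *Dcn*, the gene of decorin, went against this with 319, 149 and 104.

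Endothelial and immune cells left few reads. Of 10 endothelial genes, 5 had values, at means of 34.6 to 121 normalized counts, with *Pecam1*, a defining marker, at 44.5, 56.7 and 49.1. The summed count of the 5 genes was 273, 308 and 265 in the 3 libraries. Of 12 immune genes, 8 had values. *Ptprc*, the common antigen of leukocytes, had 5.94, 8.36 and 11.1, and *Lyz2* of macrophages was the highest at 274 ± 42.4 (SD, n = 3). No gene of the erythroid list of 7 was analysed here, nor were the 4 Y-linked genes. Smooth muscle and pericyte genes were split between *Acta2* at 4293, 6425 and 5479, *Tagln* at 2055, 3273 and 2780 and *Mcam* at 2912, 4621 and 4446 on the high side, and *Cnn1*, *Des*, *Cspg4* and *Notch3* at means of 20.2 to 111 on the low side. *Acta2* and *Tagln* also respond to actin signalling in cells on plastic, and which cells held their RNA was not tested.

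The surface epithelium, a layer over the ovary, was represented by *Krt8* at 2403 ± 176 and *Krt18* at 1277 ± 36.6 (SD, n = 3), keratins that GCs also make. The other genes of the list were lower, and all of them but *Lhx9*, at 419.5, 366 and 348, were highest in replicate 2. *Msln*, mesothelin, had 102, 159 and 68.6, *Upk3b* 145, 269 and 161, and *Krt7* 145, 252 and 148. In all, 7 of 10 genes of the list were highest in replicate 2, against 30.3% of all genes, with a median log2 deviation from the gene's mean of 0.35 there. No gene of the list was highest in replicate 3, against 35.2% of all genes. *Aldh1a2*, a gene of retinoic acid synthesis that mesothelial cells use, had the largest rise over the other libraries in replicate 2 among genes whose mean was 100 or more, with 140.5, 242 and 93.6. Replicate 2 was also the highest in 4 of 5 endothelial and 6 of 9 smooth muscle and pericyte genes, and in 11 of 15 actin and 9 of 15 reference genes. The median log2 deviation in replicate 2 was 0.28 for the stromal list, 0.09 for the actin list and 0.02 for the reference genes. The part of other cells in the values of that library was not tested.

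RNA of oocytes was present at low levels and unevenly. Of 19 oocyte genes, 16 had values, with means from 10.6 to 498 normalized counts. *Gdf9*, the growth factor by which the oocyte acts on GCs, had 257, 121 and 87.1, and its partner *Bmp15* had 139.5, 31.6 and 22.2. The egg coat genes *Zp2* and *Zp3* had 151, 61.3 and 104, and 104, 38.1 and 41.7. *H1foo*, the oocyte linker histone, had 110, 44.6 and 30.6. In 14 of 16 genes the highest value was that of replicate 1, against 34.5% of all genes, and the median log2 deviation was 0.89 in replicate 1, -0.29 in replicate 2 and -0.45 in replicate 3. The exceptions were *Kit*, at 271, 496 and 727, which other cells of the ovary also express, and *Ddx4*, at 82.1, 67.8 and 87.1. Over the 16 genes, the summed count was 1598, 1040 and 1353, with *Kit* as the largest single part in each library. Replicate 1 also had the highest *Amh*, which was the largest spread of the granulosa list at 46.9%, and the highest *Wt1*. Over the granulosa list, 9 of 18 genes were highest in replicate 1, against 34.5% of all genes. A further 7 of the 18 were lowest there, against 34.0%, *Inhbb* and *Fst* among them. Whether follicles of another stage contributed to replicate 1 was not tested.

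**Figure D3:**
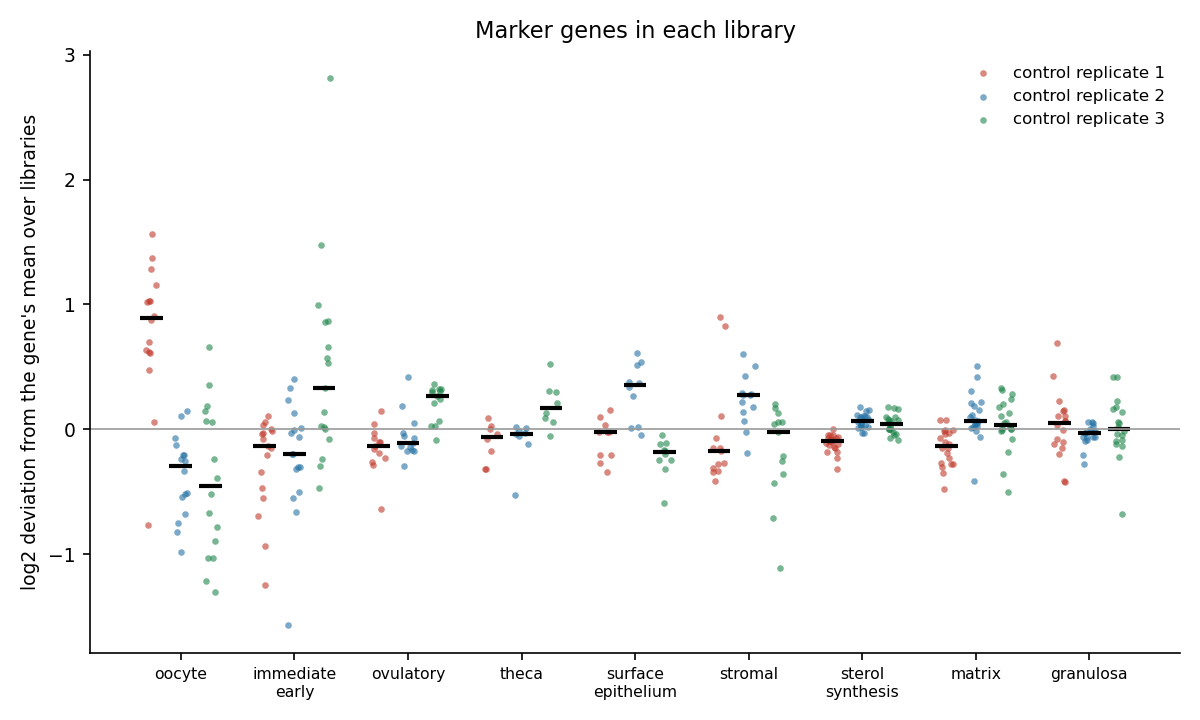
Log2 deviation of each gene from its mean over the 3 control libraries (y axis) for 9 gene lists, one point a gene and library, with black bars at the medians. Oocyte genes sit high in replicate 1 (median 0.89), surface epithelium genes in replicate 2 (0.35) and immediate early genes in replicate 3 (0.33), while the medians of the granulosa list lie within 0.05 of 0.

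The enzymes that set and remove methylation at lysine 27 of histone H3 were all measured above the median gene per kb, as was *Hif1a*. *Ezh2*, the methyltransferase of dividing cells, had 2561, 2643 and 2829 normalized counts and *Ezh1* 1528, 1337 and 1285. Per kb, *Ezh2* was 1.87, 2.20 and 2.45 times *Ezh1*. Their partners *Suz12* and *Eed* had 3763 ± 147 and 1597 ± 62.9 (SD, n = 3). Of the demethylases, *Kdm6a* had 3606 ± 164 and *Kdm6b*, also known as *Jmjd3*, 4997, 4943 and 6031. Per kb of exonic length, *Kdm6b* was 1.91 ± 0.128 times *Ezh2*, but only 0.833 times by the longest basic transcripts, so the order of this pair depends on which length is taken. *Hif1a* had 24134 ± 914 and ranked 178.

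Per kb, the type IV collagens of the basement membrane were above each of the 5 fibrillar collagen genes of the matrix list. *Col4a1* had 95644, 97261 and 96100 normalized counts, a CV of 0.865%, and *Col4a2* 55346, 56293 and 55072. Per kb, *Col4a1* was 1.54 ± 0.00874 times *Col4a2*, its partner in the same trimer and its neighbour on the opposite strand, and 66.7 ± 11.3 times *Col1a1* (SD, n = 3). The highest of the fibrillar genes was *Col5a2*, at 13464, 17469 and 18518, and *Col18a1*, whose product also lies in basement membranes, had only 114, 80.8 and 136. *Sparc*, a collagen-binding protein, had 62351 ± 767, and the laminin chain *Lama1* 21795, 27807 and 31740. Of the 20 matrix genes, 14 were lowest in replicate 1, against 34.0% of all genes, and none was highest there, against 34.5%. *Lox*, which links collagen, had 11792, 18278 and 20405, or a fold of 1.73 between the extremes.

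Genes of the actin cytoskeleton and of the signals that follow it took 1.82% of all reads. This list includes *Thbs1*, a secreted matrix protein, which alone took 0.782% of all reads. *Actb* had 108325, 112236 and 111454, *Flna* 65798 ± 2631 and *Tpm1* 52191 ± 4545 (SD, n = 3). The targets *Cyr61* and *Ankrd1* were higher per kb than *Ctgf*, at 12235, 3038 and 2234. Of the 15 genes, 12 were lowest in replicate 1, against 34.0% of all genes, and none was highest there, against 34.5%. The cells also carried RNA of dividing cells. *Mki67* had 7648, 9500 and 9320, *Top2a* 7276, 8322 and 8565, and *Ccnd2*, the cyclin D of GCs, exceeded *Ccnd1* per kb by 38.5-fold to 49.1-fold. The inhibitors *Cdkn1b* and *Cdkn1a*, known from luteinizing GCs, had 8951 ± 1153 and 5153 ± 672.

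All 20 genes of cholesterol and fatty acid synthesis and its control lay above the median gene per kb. *Hmgcs1* had 14330 ± 225 normalized counts and *Fasn* 12813, 13988 and 14871. *Scd2* exceeded *Scd1* by 20.7-fold to 23.5-fold per kb. In 18 of 20 genes replicate 1 was the lowest, against 34.0% of all genes, with a median log2 deviation of -0.10. The same library was the lowest in 10 of 16 cell cycle genes and in 9 of 15 reference genes, whose median deviation there was -0.03. Genes of the interferon response were mostly low, with a median of 58.7 per kb, and *Bst2* at 4792 ± 440 was the exception. Of the stress genes, the heme oxygenase *Hmox1* had 10885 ± 1299 and *Mt1* 14459 ± 206, whereas the heat shock gene *Hspa1a* had 92.7 ± 12.9. Of its windows of 100 bases, 56.5% also occur in other genes, mainly *Hspa1b*, so reads of the pair could be lost.

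The libraries were alike over the whole range of genes. Spearman's rho between pairs of libraries was 0.995, 0.994 and 0.995 over 16115 genes whose mean was 10 or more, given as a description, since genes of one library share its depth and its cells. The median CV among libraries was 6.86% over these genes and 3.86% over the 7023 genes at 1000 or more, of which 4552 (64.8%) had a CV under 5%. Genes with means between 10 and 30 had a median CV of 25.2%, close to the 23.6% that counting error alone gives. Above a mean of 10000 the median CV was 3.86%, against 0.781% from counting error, so that counting error was the smaller part of the spread there. The biological coefficient of variation, the common spread between libraries beyond counting error, was 8.06%.

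**Figure D4:**
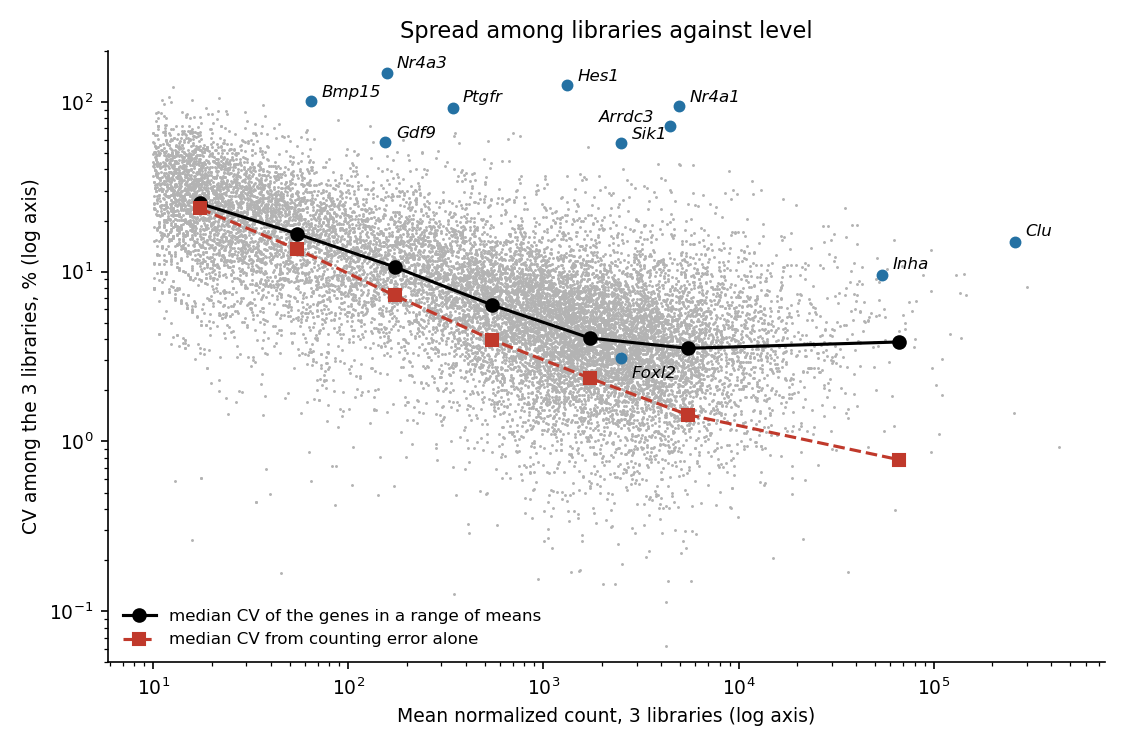
CV among the 3 control libraries (y axis, percent, log) against the mean normalized count (x axis, log) for genes whose mean was 10 or more, one grey point a gene. Black circles give the median CV in 7 ranges of means and red squares the median CV expected from counting error. *Hes1*, *Nr4a1*, *Nr4a3* and *Ptgfr* lie far above both.

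The steadiest genes at 1000 or more were *Abca2*, a transporter, with 4225, 4225 and 4221 normalized counts and a CV of 0.0622%, *Abcd3* with 0.114% and *Rhou* with 0.146%. Such values are below the counting error, which is 1.498% for *Abca2*, and stand at the low end of the 7023 genes. Among genes often used as references, *Eef1a1* had a CV of 1.47%, *Ywhaz* 1.53%, *Actb* 1.87%, *Rplp0* 2.02% and *Rpl19* 2.31%. *Gapdh* had 51708, 58114 and 56419, a CV of 5.99%.

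The widest spread among genes at 1000 or more was found in a small set that was high in replicate 3. Only 5 of the 7023 genes had a CV over 50%, namely *Hes1*, *Nr4a1*, *Arrdc3*, *Sik1* and *Rgs2*, and each of them was highest in replicate 3. *Hes1*, a repressor that Notch signals induce, had 337, 382 and 3230 normalized counts. *Arrdc3*, an arrestin-like adaptor, had 2569, 2657 and 8144, *Sik1*, a kinase induced by cyclic AMP, 1534, 1817 and 4144, and *Rgs2*, a brake on G-protein signals, 1035, 1294 and 2736. In these 4 genes replicates 1 and 2 were close to each other and apart from replicate 3. Of the 11635 genes whose mean was 100 or more, 19 were over 2-fold above both other libraries in replicate 3, against 10 in replicate 1 and 2 in replicate 2.

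Replicates 1 and 2 had their own sets of high genes, with smaller rises. In replicate 1 the largest rises over the other libraries, among genes with a mean of at least 100, were those of *Gsta2*, a glutathione transferase, at 1123, 453 and 411 normalized counts, *Dcn*, *Gdf9*, *2210011C24Rik* and *Spns2*, at 2.17-fold to 2.60-fold. *Gsta4*, of the same enzyme family, had 7485, 3593 and 4002. Of the *Gsta2* windows of 100 bases, 35.0% are shared with other genes. Replicate 1 was also the highest for *Nqo1* at 1207, 655 and 901, *Gclm* at 7444, 5163 and 6607 and *Txnrd1* at 40904, 29534 and 36094, which were picked from the stress list after their values were seen. Over that list, 5 of 14 genes were highest in replicate 1, close to the 34.5% of all genes, and 7 in replicate 3. In replicate 2 the largest rises were those of *Aldh1a2*, *Glipr1*, *Sema4f*, *Msln* and *Dner*, at 1.85-fold to 2.06-fold.

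The NR4A receptors, orphan nuclear receptors of the immediate early type that cyclic AMP and gonadotropins are known to induce, moved together. *Nr4a3* had 24.7, 19.5 and 427 normalized counts, or 19.3-fold more in replicate 3 than the mean of the other libraries. *Nr4a1* had 1950, 2546 and 10385, and *Nr4a2* had 378, 499 and 1225. In all 3 genes, replicates 1 and 2 lay closer to each other than to replicate 3. Over the immediate early list, 10 of 17 genes were highest in replicate 3, against 35.2% of all genes, and members of the Fos, Jun and Egr families were divided. *Fos* had 8644, 10971 and 5990, *Fosb* 7246, 9384 and 6085 and *Jun* 5677, 6681 and 4807, all lowest in replicate 3, and *Egr1* had 11319, 10296 and 9964. Their relatives *Fosl1* at 129, 106 and 165, *Egr2* at 75.2, 55.8 and 119 and *Egr3* at 11.9, 8.36 and 25.9 were highest in replicate 3. *Junb* at 3214, 3553 and 5890, *Btg2* at 2641, 3192 and 5773, *Atf3* at 229, 269 and 612 and, less so, *Zfp36* at 2835, 3108 and 3439 were also highest there. Of the luteal list, 10 of 16 genes were highest in replicate 3, against 35.2% of all genes, *Ptgfr* and *Lhcgr* among them. The lowest value was that of replicate 3 in 4 of the 16, against 35.2%. The labels do not record a difference in handling between the libraries, and its part was not tested.

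**Figure D5:**
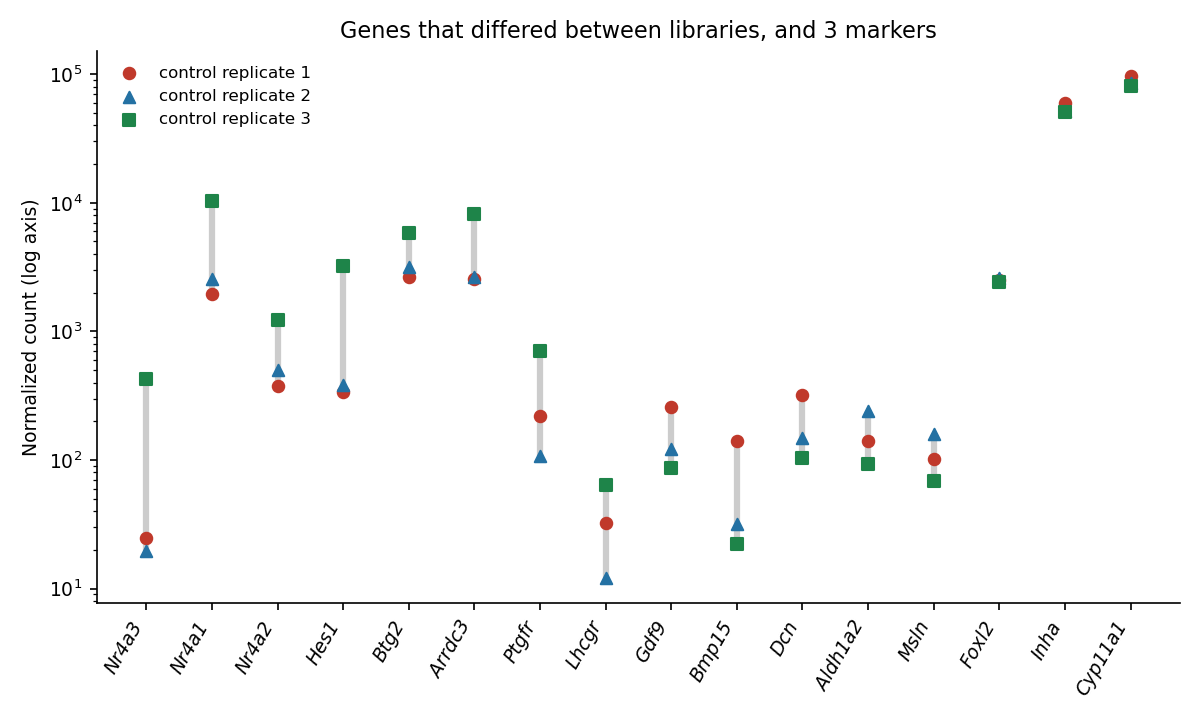
Normalized count (y axis, log) of 16 genes in control replicates 1 (red circles), 2 (blue triangles) and 3 (green squares), with grey bars from the lowest to the highest library. The NR4A genes, *Hes1*, *Btg2*, *Arrdc3*, *Ptgfr* and *Lhcgr* are highest in replicate 3, *Gdf9*, *Bmp15* and *Dcn* in replicate 1, and *Aldh1a2* and *Msln* in replicate 2, while *Foxl2*, *Inha* and *Cyp11a1* lie close together.

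The sequences before the start sites of the genes that moved together in replicate 3 are given to show what they share. The 250 bases before the RefSeq start of each gene (GRCm38.p6) were searched for TGACG, the core of the cyclic AMP response element, on both strands, and for the whole element TGACGTCA, whose matches contain 2 overlapping cores. Among the 11327 of the 16300 genes with such a sequence, 26.2% held at least 1 core, 6.88% at least 2, 0.318% at least 4, and 2.66% the whole element. *Nr4a1*, *Nr4a2* and *Nr4a3* each held 4 cores, and *Btg2* held a whole element. Of the 10 genes with the widest spread and the 5 with the largest rise in replicate 3, as 1 set, 8 had a sequence, and *Nr4a1* and *Nr4a3* held 4 cores, *Btg2* and *Rgs2* held 2 and *Rasgef1b* held 1, while *Arrdc3*, *Igfbp5* and *Ptgfr* held none. A match describes letters in this window and no binding was measured. The sequences run 5′ to 3′ on the strand of the gene, with each core in capitals, as TGACG or, on the other strand, as CGTCA. They lie at chr15:101266596-101266845 on the plus strand for *Nr4a1*, chr2:57124004-57124253 on the minus strand for *Nr4a2*, chr4:48045055-48045304 on the plus strand for *Nr4a3* and chr1:134079156-134079405 on the minus strand for *Btg2*. The RefSeq start used for *Nr4a1* is 12577 bases from the 5′ end of the gene in GENCODE.
Nr4a1: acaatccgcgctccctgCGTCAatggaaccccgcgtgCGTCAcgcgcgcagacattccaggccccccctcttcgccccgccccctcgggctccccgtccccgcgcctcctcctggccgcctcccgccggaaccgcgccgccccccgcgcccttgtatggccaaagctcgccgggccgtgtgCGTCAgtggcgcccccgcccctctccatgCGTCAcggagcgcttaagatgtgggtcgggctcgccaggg
Nr4a2: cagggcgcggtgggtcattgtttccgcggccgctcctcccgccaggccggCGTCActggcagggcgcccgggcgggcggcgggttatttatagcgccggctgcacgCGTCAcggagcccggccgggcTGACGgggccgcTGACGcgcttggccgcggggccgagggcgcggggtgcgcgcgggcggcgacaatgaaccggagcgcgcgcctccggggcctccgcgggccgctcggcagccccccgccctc
Nr4a3: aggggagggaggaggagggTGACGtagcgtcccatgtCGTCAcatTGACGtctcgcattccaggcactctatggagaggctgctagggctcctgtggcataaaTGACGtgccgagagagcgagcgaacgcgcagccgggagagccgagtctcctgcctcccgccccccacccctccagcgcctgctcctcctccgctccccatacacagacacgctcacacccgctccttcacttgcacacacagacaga
Btg2: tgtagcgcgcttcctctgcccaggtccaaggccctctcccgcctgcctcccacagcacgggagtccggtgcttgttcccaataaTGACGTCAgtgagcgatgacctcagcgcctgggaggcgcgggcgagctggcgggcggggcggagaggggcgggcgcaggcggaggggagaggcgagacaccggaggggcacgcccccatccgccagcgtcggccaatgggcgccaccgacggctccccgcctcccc
Counted back from the start, with the base before it as -1, all 4 cores of *Nr4a1* read on the other strand, the nearest from -40 to -36. The cores of *Nr4a2* lie between -200 and -107, 2 on each strand. Those of *Nr4a3* lie between -231 and -143, 3 on the strand of the gene and 1 on the other.

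The mitochondrial genes, which took 2.53% to 2.68% of the reads, were uneven. Read counts of *mt-Co1*, *mt-Cytb*, *mt-Nd5*, *mt-Nd1*, *mt-Nd2*, *mt-Nd4* and *mt-Nd6* were among the 100 highest of all genes, whereas *mt-Co2* had 32.7, 45.5 and 40.8 normalized counts, *mt-Co3* 71.2, 115 and 68.6 and *mt-Atp6* 39.6, 39.96 and 39.8. Of the windows of 100 bases, 99.5% of *mt-Co2*, 99.9% of *mt-Co3* and 99.5% of *mt-Atp6* also occur in an annotated nuclear copy, against 30.8% of *mt-Co1* and 60.8% of *mt-Nd4*, and none of *mt-Nd1*, *mt-Nd5*, *mt-Nd6* and *mt-Cytb*. The authors counted only unique reads, and the part of the shared windows in these values was not tested. The short *mt-Atp8*, with no shared window, had 21.8, 18.6 and 18.5. No order of expression is read among mitochondrial genes whose shared windows differ.

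Of the long noncoding RNAs, *Malat1* had 58707, 60923 and 57515 normalized counts and ranked 35, and *Xist*, which silences an X chromosome in female cells, had 31671, 24782 and 30433. *Meg3* and *Rian*, neighbours in the imprinted cluster on chromosome 12, had 2726, 2707 and 3778, and 2148, 2490 and 3595, both highest in replicate 3. Several of these genes overlap others on the same strand or the other strand, so their reads cannot be assigned with certainty. Genes known from Sertoli cells, the counterpart of GCs in the testis, were low, with *Sox9* at 145 ± 8.84 and *Dhh*, the hedgehog ligand that GCs also make, at 674 ± 113 (SD, n = 3).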

How the data were processed

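RNA-seq libraries of untreated GCs were made and processed by the authors, who trimmed the reads with Trimmomatic 0.36, mapped them to GRCm38 with STAR 2.5.2b and assigned uniquely mapped exonic reads to genes with featureCounts of Subread 1.5.2. The strand setting and the annotation release are not given in the sources used here. The deposited signal is a normalized count, made by the authors by dividing the reads of a gene by a size factor from DESeq2. They also deposited a log2 fold change and p-values of their own comparison, which were not used, and a table of selected genes that was not used either. Columns of the treated libraries were not analysed here.

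Reads were recovered by dividing each library by its step, the value of 1 read, which gave whole numbers (within 1e-06) for 100% of the values. Depth was 38486526 to 41928585 reads. At a mean of 100 to 300 the median of the CVs expected from counting error was 7.24%. Means, SDs and CVs were taken over the 3 libraries, and the biological coefficient of variation came from edgeR 4.0.16 in R 4.3.3 with an intercept only. Nothing was tested between groups, and the spread between libraries may be technical as well as biological. Lengths and positions came from GENCODE M21 (GRCm38), in which 16265 genes matched by identifier, and promoter sequences from RefSeq (GRCm38.p6). The edgeR estimate was tested on simulated counts with a known spread.

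The groups follow the characteristic that names the treatment. Genes were named by a rule: the 25 highest means, the 10 highest per kb among genes with over 200 exonic bases, members of 26 gene lists, the 10 widest and 10 narrowest CVs at means of at least 1000, and the 5 largest rises in each library at means of at least 100. Some genes that the rule covers are not reported here. The members and lists were chosen with earlier results of these data known. Alternatives were other scalings, the median, other filters and pseudocounts, DESeq2 1.42.0, and each library left out in turn. The length of the longest transcript in the basic set of GENCODE was added after seeing the data.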

Additional observations from a re-analysis of the deposited data

How the results depend on the processing

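No paired analysis was possible because the values come from 1 group and no test was run. The number of genes with a mean of at least 1000 was 7006 to 7024 under every alternative, including each library left out in turn (7015 to 7024), and the 25 highest genes by count kept 24 or 25 members under each scaling, the median and each library left out. Per kb of exonic length 15 of the 25 were kept, and 16 by the longest basic transcript. The share of reads in the 10 highest genes, 5.40%, was 4.51% without mitochondrial genes and 5.39% to 5.41% with a library left out. The median CV, 6.86%, was 5.31% at means of at least 50 and 5.06% to 6.12% with a library left out, where a CV over 2 libraries is smaller by construction. The biological coefficient of variation, 8.06%, was 8.46% by DESeq2 and 6.50% to 9.47% with a library left out, lowest without replicate 3. The mean Spearman's rho, 0.9948, was 0.9963 at means of at least 50 and 0.9940 to 0.9955 with a library left out, and Pearson's r of log2(value + pseudocount) was 0.9932 with 0.5 and 0.9934 with 1. The levels of all 327 named genes moved by less than their SD under each scaling. The means of genes high in 1 library rest on it. Without replicate 3, Nr4a3 had a mean of 22.1 in place of 157, Hes1 360 in place of 1317 and Nr4a1 2248 in place of 4960, and without replicate 1, Gdf9 had 104 in place of 155. Levels near 10 normalized counts are limited by counting error, and the 3 libraries limit every SD.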
